A study of Danio rerio with 12 samples.

Results

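The maternally supplied transcriptome of smchd1 null zebrafish embryos was compared with that of wildtype (wt) embryos, both collected with 4 to 8 cells. The 6 libraries, of 12 in the series, were chosen by their labels alone. They comprised 3 maternal-zygotic (MZ) smchd1 libraries of the lof1 genotype and 3 wt libraries, all of strain AB and each made from poly-A RNA of 30 to 50 pooled embryos. MZ embryos lack smchd1 from the mother as well as from their own genome. The lof1 allele is 1 CRISPR line with an out-of-frame mutation in the ATPase domain, so that other variants carried by the line cannot be told apart from the loss of smchd1. Whether the 3 samples of a genotype were laid by different parents is not in the labels. The p-values measure only the spread between these samples, part of which may be technical.

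A zebrafish embryo of this stage has not begun to transcribe its own genome. Its RNA was made by the mother during oogenesis, stored in the egg, and is later read out under control of poly(A) tails and cleared after zygotic transcription starts. SMCHD1 is a non-canonical structural maintenance of chromosomes (SMC) protein with a GHKL ATPase domain, known in mammals for gene silencing on the inactive X chromosome, at imprinted genes and in clustered gene families. The comparison asks which stored transcripts, beyond those of the hox genes, differ when the oocyte lacks it. In libraries of poly-A RNA, a changed amount of a transcript and a changed poly(A) tail cannot be told apart.

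Expression is given as CPM, a gene's counts relative to the scaled total of its library, always in the order of replicates 1, 2 and 3, or as mean ± SD (n = 3 libraries per genotype), and fold changes are MZ smchd1 over wt on a log2 scale. A symbol in capitals comes from a gene name table that does not say which zebrafish copy is meant. Of 31462 genes in the tables, 15937 passed the filter on low counts and were tested with edgeR's quasi-likelihood test. A gene was called at an adjusted p under 0.05. The targeted gene itself was at 7.89, 5.44 and 6.65 CPM in MZ smchd1, against 267, 231 and 224 CPM in wt (log2 fold change -5.17 ± 0.15 (SE), edgeR adjusted p = 0.000105). All 10 maternal transcripts taken as markers of the stage, among them nanog, pou5f3, buc and ccnb1, were tested and none was called. Their summed level was 5449 to 5991 CPM in MZ smchd1, against 5440 to 5781 CPM in wt. The 8 genes taken as markers of zygotic transcription summed to 3.75 to 6.59 CPM in MZ smchd1, against 7.12 to 7.87 CPM in wt, and none of the 4 that passed the filter was called. Of these sums ndr1 alone held 3.05, 1.46 and 1.81 CPM in MZ smchd1, against 4.28, 4.28 and 4.39 CPM in wt.

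In all, 482 genes (3.02% of those tested) were called, 212 of them higher (1.33%) and 270 lower (1.69%) in MZ smchd1. Of these, 129 were over 2-fold higher and 161 over 2-fold lower. The median change of all genes tested was 0.00 on the log2 scale, a value that the scaling between libraries largely sets. A change in the total amount of RNA cannot be seen in such relative levels. In pooled embryos, a changed level in every embryo and a larger change in only some of them cannot be told apart. The number of calls depended on single libraries, with 136, 173 and 125 calls without MZ smchd1 replicate 1, 2 or 3, and 333, 231 and 282 without wt replicate 1, 2 or 3. DESeq2, the tool of the study, called 950 genes higher and 1076 lower in the same libraries, 437 and 498 of them over 2-fold. The study itself called only genes over 2-fold with a mean expression above 10, an expression limit not set in this DESeq2 fit. A core of 76 genes (0.477% of those tested), 31 higher and 45 lower, was called in the full fit and again with each of the 6 libraries left out in turn. These are referred to below as stable genes, and every other gene named as called lost its call in at least 1 of those 6 fits. The stable genes include smchd1, whose call follows from the design, and the hox genes HOXB2 and HOXC10. The 3 libraries of one genotype lay wholly above or below the 3 of the other in 4625 of the genes tested (29.0%) and in all 482 called genes.

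**Figure D1:**
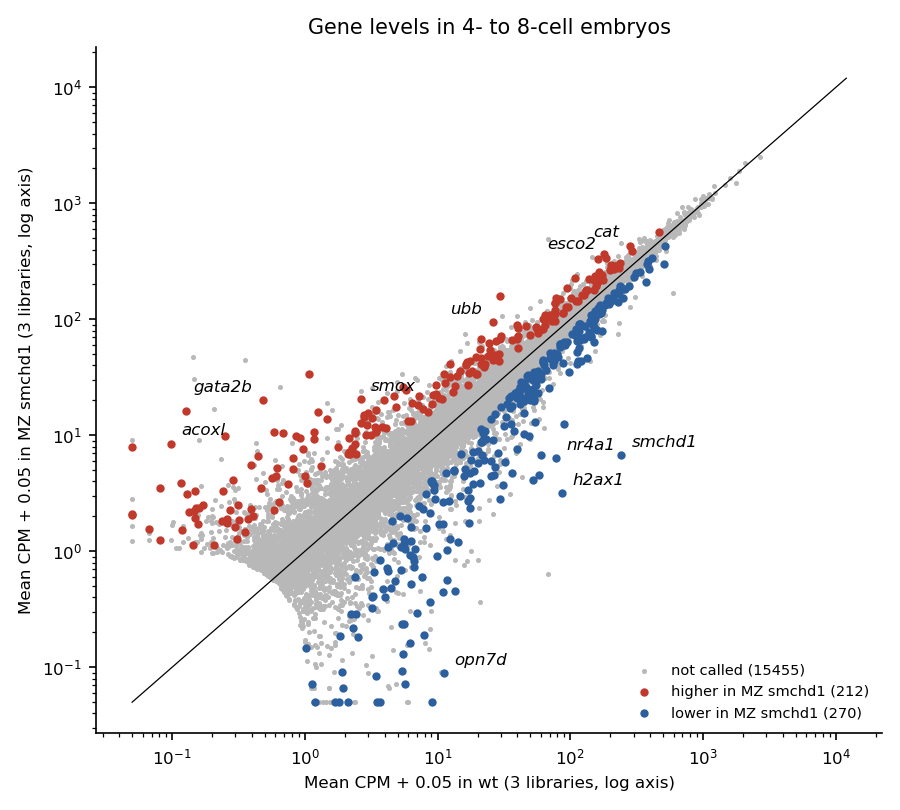
Mean level of each tested gene in MZ smchd1 (vertical axis) and in wt (horizontal axis) embryos, in CPM plus 0.05 on log axes, with 1 point per gene and the line of equal levels drawn. The 212 genes called higher lie above the line and reach far up where wt is below 1 CPM, whereas the 270 called lower lie below it, and smchd1, nr4a1 and h2ax1 stand out among them.

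Genes called higher had a median of 27.9 CPM in MZ smchd1 and 11.8 CPM in wt, whereas genes called lower had 14.9 CPM in MZ smchd1 and 41.0 CPM in wt. Among the 3178 genes above 100 CPM in wt, 36 were called higher and 69 lower, with a median change of 1.42-fold among the called ones. Among the 6860 genes between 10 and 100 CPM in wt, 74 were called higher and 132 lower, with a median of 2.02-fold. Of the 34 tested genes at or below 0.1 CPM in wt, 16 were called, all higher. Genes of so low a level in wt passed the filter only through the MZ smchd1 libraries, so that their number and direction follow from the filter. These groups rest on the wt level, which is one side of the fold change, and smaller changes can be called where counts are high, so that the values are a description only. The filter was a mean scaled count above 10 over both genotypes. A gene named below with a mean of 10 or less in 1 genotype passed it only through the other, which fixes its direction. This holds also where it is not repeated, among others for acoxl, GRIA2, gata2b, prune2, olig2, irak3, arhgef38, EPHB3, gamt and etf1a. It holds likewise for the decreases of FGF13, osm, hist2h2l, dmbx2 and zbtb46.

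**Figure D2:**
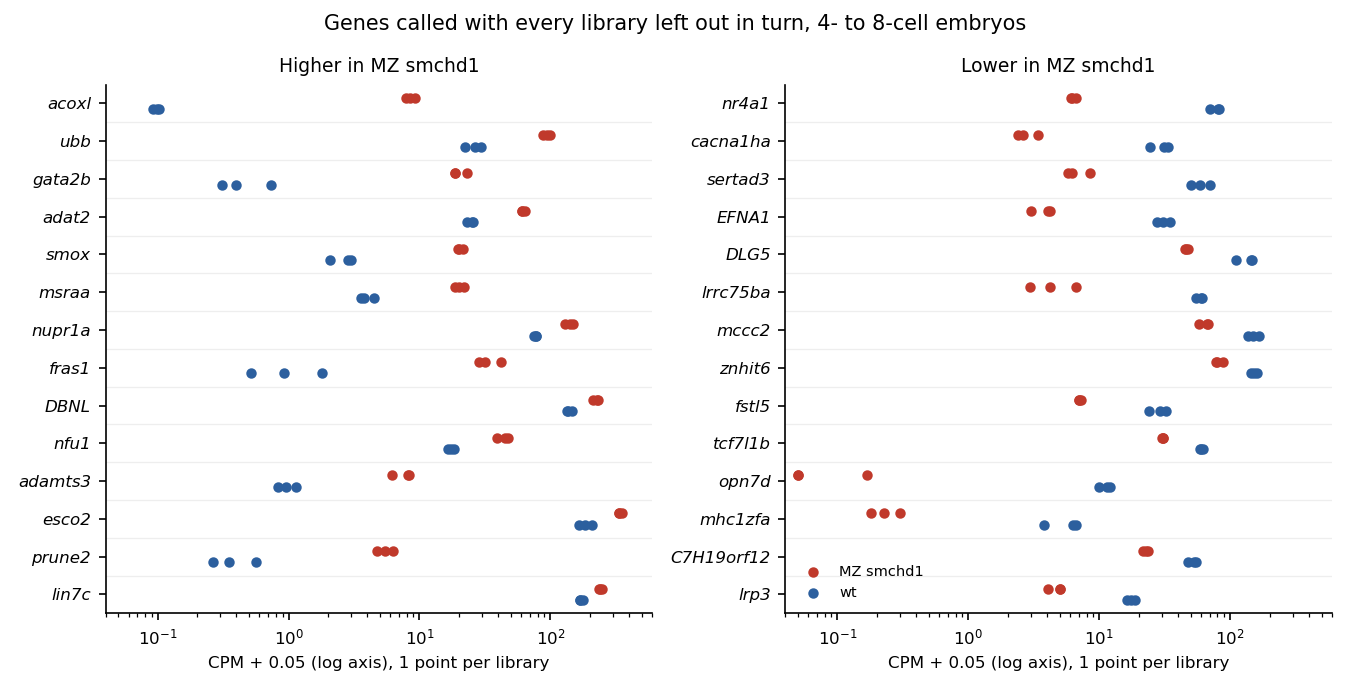
Level of the 14 stable genes with the lowest adjusted p in each direction (smchd1, hox genes and genes without a name of their own apart), in CPM plus 0.05 on a log axis, with 1 point per library, MZ smchd1 above wt in each row. The 3 libraries of each genotype lie apart from those of the other in every row, by a short distance for lin7c and DBNL and by a long one for acoxl, gata2b and opn7d.

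The stable genes included those for a polyubiquitin, enzymes, scaffolds, ligands, channels and transcription factors. Among those that rose, ubb, which encodes a polyubiquitin precursor, was at 88.4, 94.9 and 99.2 CPM in MZ smchd1, against 26.5, 29.3 and 22.1 CPM in wt (log2 fold change 1.86 ± 0.12 (SE), edgeR adjusted p = 0.00323). Every MZ smchd1 library lay far above every wt library. smox, the spermine oxidase that turns spermine back into spermidine, was at 21.5, 20.1 and 19.7 CPM in MZ smchd1, against 2.95, 2.04 and 2.79 CPM in wt (log2 fold change 2.97 ± 0.21 (SE), edgeR adjusted p = 0.00339). adat2, the catalytic subunit of the deaminase that makes inosine at the wobble position of tRNAs, had 64.2, 60.9 and 61.2 CPM in MZ smchd1, against 25.4, 22.9 and 25.3 CPM in wt (log2 fold change 1.34 ± 0.097 (SE), edgeR adjusted p = 0.00339). The genotypes did not overlap for any of the 3, as held for every called gene.

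Other enzymes and a nuclear protein were among the stable increases. msraa, a methionine sulfoxide reductase that repairs oxidised proteins, was at 21.9, 19.8 and 18.8 CPM in MZ smchd1, against 3.51, 4.48 and 3.72 CPM in wt (log2 fold change 2.37 ± 0.19 (SE), edgeR adjusted p = 0.0042). Its paralogue msrab changed in the opposite direction, with 0.987 CPM in MZ smchd1 and 6.70 CPM in wt (edgeR adjusted p = 0.0177). nupr1a, a small stress-induced nuclear protein, had 148, 140.5 and 128 CPM in MZ smchd1, against 77.9, 74.4 and 77.1 CPM in wt (log2 fold change 0.86 ± 0.072 (SE), edgeR adjusted p = 0.00488). nfu1, a scaffold for iron-sulfur clusters in mitochondria, was at 47.7, 38.8 and 44.6 CPM in MZ smchd1, against 18.4, 16.4 and 17.5 CPM in wt (log2 fold change 1.32 ± 0.13 (SE), edgeR adjusted p = 0.00793). esco2, the acetyltransferase that locks cohesin onto replicated DNA and so acts on a complex of the SMC family to which smchd1 is related, was among the most abundant genes that rose, with 334, 352 and 335 CPM in MZ smchd1, against 165, 208 and 185 CPM in wt (log2 fold change 0.87 ± 0.090 (SE), edgeR adjusted p = 0.00944). For each of these genes, as for every called gene, every MZ smchd1 library lay outside the wt range, on the same side.

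DBNL (drebrin-like, an actin-binding adaptor) changed by 0.69 ± 0.064 and lin7c (a scaffold of cell junctions and synapses) by 0.49 ± 0.053 (log2, SE), at over 100 CPM in both genotypes. adamts3, a protease that trims procollagens and the lymphatic growth factor Vegfc, had 7.503 ± 1.2 CPM in MZ smchd1 and 0.923 ± 0.16 CPM in wt. prune2 had 5.45 ± 0.79 CPM in MZ smchd1 and 0.343 ± 0.16 CPM in wt. fam107b had 85.6 ± 2.9 CPM in MZ smchd1 and 55.2 ± 1.3 CPM in wt. gtf2ird1, a transcription factor related to the general factor TFII-I, had 14.2 ± 1.5 CPM in MZ smchd1 and 3.16 ± 0.75 CPM in wt. acoxl and GRIA2 had 3 counts or fewer over the wt libraries. gata2b had 20.1 ± 2.4 CPM in MZ smchd1 and 0.430 ± 0.22 CPM in wt, fras1 had 33.9 ± 6.9 CPM in MZ smchd1 and 1.03 ± 0.65 CPM in wt, and TMEM132D had 5.13 ± 1.0 CPM in MZ smchd1 and 0.564 ± 0.16 CPM in wt. For acoxl, 446 counts in MZ smchd1 stood against 3 in wt, a ratio of 178 (95% counting interval 60.4 to 864), and for GRIA2 191 counts stood against 2, a ratio of 114.1 (95% counting interval 31.1 to 949). GRIA2 was at 5.59, 2.93 and 1.87 CPM in MZ smchd1, against 0.0428, 0 and 0.0517 CPM in wt, with MZ smchd1 replicate 1 highest.

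The stable decreases were led by nr4a1, an orphan nuclear receptor and immediate-early gene, at 6.14, 6.03 and 6.65 CPM in MZ smchd1, against 81.8, 70.0 and 80.8 CPM in wt (log2 fold change -3.63 ± 0.12 (SE), edgeR adjusted p = 0.000116). After smchd1 it had the lowest adjusted p of all genes. sertad3, a regulator of E2F-driven transcription, was at 6.09, 8.43 and 5.75 CPM in MZ smchd1, against 70.6, 50.5 and 59.1 CPM in wt (log2 fold change -3.15 ± 0.21 (SE), edgeR adjusted p = 0.00323). EFNA1, the ligand ephrin-A1, had 2.95, 4.16 and 4.00 CPM in MZ smchd1, against 30.9, 27.6 and 34.8 CPM in wt (log2 fold change -3.07 ± 0.20 (SE), edgeR adjusted p = 0.00323). In each of these genes the highest MZ smchd1 library stayed far below the lowest wt library.

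Other stable decreases included several abundant transcripts. mccc2, a subunit of the carboxylase that degrades leucine in mitochondria, had 67.3, 66.2 and 57.3 CPM in MZ smchd1, against 166, 136 and 149 CPM in wt (log2 fold change -1.24 ± 0.10 (SE), edgeR adjusted p = 0.00464). znhit6, needed for assembly of box C/D snoRNPs, was at 87.9, 78.5 and 79.7 CPM in MZ smchd1, against 161, 145 and 152 CPM in wt (log2 fold change -0.89 ± 0.073 (SE), edgeR adjusted p = 0.00464). DLG5, a scaffold of cell polarity, was at 47.4, 45.7 and 45.02 CPM in MZ smchd1, against 146, 144 and 111 CPM in wt (log2 fold change -1.54 ± 0.12 (SE), edgeR adjusted p = 0.00408). tcf7l1b, a repressor of Wnt target genes with a known role in head formation in zebrafish, was at 30.4, 30.4 and 30.7 CPM in MZ smchd1, against 58.7, 59.7 and 61.6 CPM in wt (log2 fold change -0.98 ± 0.086 (SE), edgeR adjusted p = 0.00645). The 3 MZ smchd1 libraries of this gene were almost identical. lrrc75ba had 4.54 ± 1.9 CPM in MZ smchd1 and 58.5 ± 3.2 CPM in wt. fstl5, a secreted follistatin-like protein, had 7.02 ± 0.13 CPM in MZ smchd1 and 28.3 ± 4.3 CPM in wt. lrp3, a member of the LDL receptor family, had 4.66 ± 0.57 CPM in MZ smchd1 and 17.6 ± 1.3 CPM in wt, and C7H19orf12 had 22.6 ± 1.0 CPM in MZ smchd1 and 51.7 ± 3.8 CPM in wt. Other stable decreases that carry a gene name were ITGB1, bcl2l13, ltn1, p2rx7, exoc3l4, KIDINS220, arhgap27, dnaaf9, ttbk2b, fndc1, myo1d, erbb3b, kcnq1.1, usp16, MBD3, FGF13, osm, opn7d, mhc1zfa, cacna1ha and h2ax1, many of which are described with their families.

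The 482 called genes were next sorted into 77 lists defined by patterns on gene symbols, which held 201 of them. Lists were read against the 3.02% of all tested genes that were called, and their median changes against 0.00. No test was run on a list. No list median moved when genes with 0 counts in a genotype were set to the bound that their counts allow. Few list members had 0 counts and the bound keeps their sign, so that this could hardly move a median. Under the alternatives given at the end, 166 of 1309 list medians moved.

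**Figure D3:**
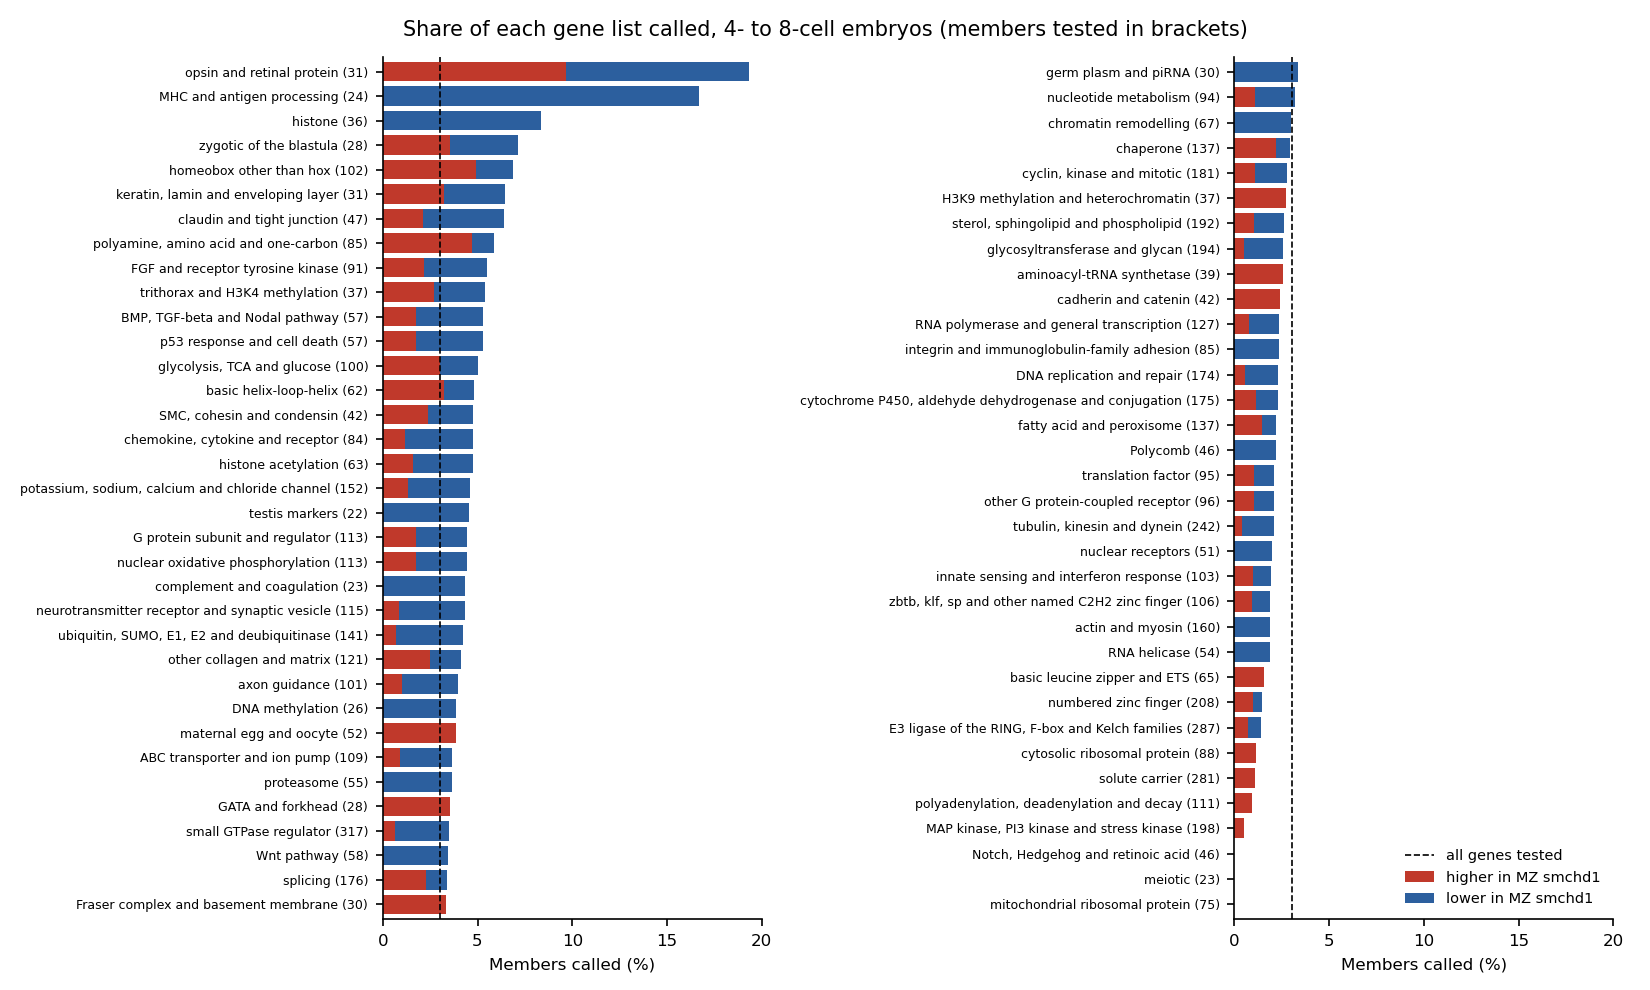
Share of the tested members of each gene list called higher (red) and lower (blue) in MZ smchd1, in percent, for lists with at least 20 tested members, in descending order, with the number tested in brackets and the share of all genes as a dashed line. The opsin and retinal list and the antigen processing list reach 19.4% and 16.7%, most lists lie within a few percent of 3.02%, and the mitochondrial ribosomal, meiotic and Notch, Hedgehog and retinoic acid lists have no called member.

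Among transcription factor families, 7 of 102 tested homeobox genes other than hox (6.86%) were called, 5 higher and 2 lower, with a list median of 0.01. Among those that rose, nkx2.7, OTX2, mixl1 and vsx1 act in patterning of the embryo. nkx2.7 had 77 counts in MZ smchd1 and 1 in wt, a ratio of 92.0 (95% counting interval 16.03 to 3680.0). mixl1, a mesendoderm gene that zygotic transcription normally supplies, had 7.99, 12.6 and 9.50 CPM in MZ smchd1, against 2.74, 4.28 and 2.27 CPM in wt (log2 fold change 1.69 ± 0.32 (SE), edgeR adjusted p = 0.0466), and was thus detected in all 6 libraries. dmbx2, with 0.352 ± 0.14 CPM in MZ smchd1 and 3.95 ± 1.6 CPM in wt, and the abundant ADNP2, with 178 ± 3.2 CPM in MZ smchd1 and 232 ± 12.3 CPM in wt, were lower. These named increases were thus of transcripts at 12.6 CPM or less in every library. nkx2.7 and OTX2 were tested only through the MZ smchd1 libraries, so that their direction follows from the filter.

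Among other factors, gata2b was the 1 called gene of 28 GATA and forkhead genes. Of 62 basic helix-loop-helix genes, 3 were called (4.84%, against 3.02% of all genes). arnt, the partner of hypoxia and dioxin receptors, rose (41.3 ± 11.9 CPM in MZ smchd1 and 12.3 ± 0.91 CPM in wt), as did the rare olig2 (1.72 ± 0.64 CPM in MZ smchd1 and 0.208 ± 0.11 CPM in wt). id3, an inhibitor of such factors, fell (10.2 ± 3.4 CPM in MZ smchd1 and 44.4 ± 10.6 CPM in wt). JUNB, a subunit of AP-1, had 11.5, 10.7 and 9.04 CPM in MZ smchd1, against 1.16, 0.597 and 0.155 CPM in wt (log2 fold change 4.00 ± 0.60 (SE), edgeR adjusted p = 0.0267). It was the 1 called gene of 65 leucine zipper and ETS genes. JUNB and nr4a1 are both immediate-early genes, and they changed in opposite directions. Called shares were below that of all genes for the 208 numbered zinc finger genes (1.44%), where znf1012 and znf1187 were higher and znf592 lower, for the 106 other C2H2 genes (1.89%), where zbtb21 was higher and zbtb46 lower, and for the 51 nuclear receptors (1.96%), where nr4a1 was the 1 called gene. None of 19 sox and T-box genes was called.

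Among lists of chromatin genes, called shares were 8.33% for histone genes, 5.41% for trithorax and H3K4 methylation, 4.76% for histone acetylation and 3.85% for DNA methylation. They were 2.99% for remodelling, 2.70% for H3K9 methylation and 2.17% for Polycomb genes, against 3.02% of all genes. The share was 4.76% for SMC, cohesin and condensin genes, but it counts smchd1 itself, whose call follows from the design. MBD3, a subunit of the NuRD nucleosome remodelling and deacetylase complex, was stable and fell slightly, with 61.5, 58.6 and 61.2 CPM in MZ smchd1, against 90.3, 92.1 and 92.5 CPM in wt (log2 fold change -0.60 ± 0.064 (SE), edgeR adjusted p = 0.0101). mta3, another NuRD subunit, had 43.1 ± 2.0 CPM in MZ smchd1 and 62.2 ± 3.0 CPM in wt (edgeR adjusted p = 0.0335). MBD3 was the 1 called gene among 26 genes of DNA methylation. SUV39H1, an H3K9 methyltransferase, had 56.6 ± 2.2 CPM in MZ smchd1 and 40.3 ± 2.4 CPM in wt and was the 1 called gene of 37 in its list. scmh1, a Polycomb protein, had 3.80 ± 0.35 CPM in MZ smchd1 and 9.11 ± 1.2 CPM in wt and was the 1 called gene of 46. KANSL1 and kansl3, subunits of the same acetyltransferase complex, changed in opposite directions, by -0.47 ± 0.085 and 0.45 ± 0.084 (log2, SE). SMARCAD1, a remodeller that acts behind the replication fork, had 19.6 ± 4.0 CPM in MZ smchd1 and 53.7 ± 7.9 CPM in wt. hdac6, a largely cytoplasmic tubulin deacetylase, rose to 16.7, 13.4 and 14.9 CPM in MZ smchd1, against 1.20, 2.79 and 4.29 CPM in wt (log2 fold change 2.45 ± 0.44 (SE), edgeR adjusted p = 0.0405). Of 42 genes for SMC proteins, cohesin and condensin, smchd1 and esco2 were the 2 called, so that esco2 alone was called apart from the targeted gene.

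Among histone genes and their chaperones, 3 of 36 (8.33%) were called, all lower, with a list median of 0.03. h2ax1, a gene for the histone variant H2A.X that marks DNA breaks, had 2.90, 2.40 and 4.07 CPM in MZ smchd1, against 147, 48.7 and 65.5 CPM in wt (log2 fold change -4.81 ± 0.50 (SE), edgeR adjusted p = 0.00944). The wt libraries differed widely among themselves, with replicate 1 highest, yet each lay far above the highest MZ smchd1 library. hist2h2l, its neighbour, had 0.200, 0.410 and 0.581 CPM in MZ smchd1, against 18.1, 6.57 and 8.27 CPM in wt (log2 fold change -4.79 ± 0.58 (SE), edgeR adjusted p = 0.015), with the same order of wt libraries. hira, a chaperone that deposits histone H3.3, had 169 ± 7.9 CPM in MZ smchd1 and 215 ± 7.0 CPM in wt. Histone genes have near-identical copies, so that reads may be shared among them, and most histone transcripts carry no poly(A) tail. Of 174 genes for DNA replication and repair, 4 were called (2.30%, below the 3.02% of all genes). Of these msh6 was higher and h2ax1, polh and rev3l lower. polh and rev3l encode translesion DNA polymerases, and mad2l2, listed with mitotic genes, encodes a partner of rev3l known as Rev7. polh had 11.04, 8.96 and 12.5 CPM in MZ smchd1, against 43.0, 28.6 and 42.2 CPM in wt (log2 fold change -1.81 ± 0.22 (SE), edgeR adjusted p = 0.0142). mad2l2 had 6.84, 4.86 and 6.201 CPM in MZ smchd1, against 30.8, 17.9 and 27.6 CPM in wt (log2 fold change -2.09 ± 0.26 (SE), edgeR adjusted p = 0.0155). rev3l had 248, 259 and 244 CPM in MZ smchd1, against 303, 322 and 309.9 CPM in wt (log2 fold change -0.31 ± 0.053 (SE), edgeR adjusted p = 0.035). This trio was put together after the values were seen, from lists whose called shares (2.30% and 2.76%) lay below that of all genes.

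No mitochondrial ribosomal protein gene of 75, no m6A methylation gene of 17 and no meiotic gene of 23 was called. Of 88 cytosolic ribosomal protein genes rps15a alone was called, with 48.3 ± 3.6 CPM in MZ smchd1 and 27.5 ± 2.9 CPM in wt, and their median was 0.14. zfp36l2, an RNA-binding protein that promotes decay of AU-rich transcripts, was higher, with 213 ± 13.03 CPM in MZ smchd1 and 159 ± 12.8 CPM in wt, and was the 1 called gene of 111 for poly(A) tails and decay. Of 176 splicing genes, 4 rose and 2 fell (3.41%). HNRNPK had 21.2, 20.7 and 20.4 CPM in MZ smchd1, against 10.6, 10.2 and 9.92 CPM in wt (log2 fold change 1.02 ± 0.14 (SE), edgeR adjusted p = 0.0181). rbm19 had 41.4 ± 4.9 CPM in MZ smchd1 and 21.3 ± 1.0 CPM in wt, whereas hnrnpc and srsf2a were lower. hnrnpc had 316 ± 11.9 CPM in MZ smchd1 and 388 ± 12.4 CPM in wt, and srsf2a had 132 ± 2.7 CPM in MZ smchd1 and 168 ± 9.0 CPM in wt. HNRNPK, whose 3 libraries of each genotype were within 1 CPM of each other, did not overlap between genotypes, as held for every called gene. elac2, which trims the ends of tRNA precursors, was slightly higher, with 279 ± 1.6 CPM in MZ smchd1 and 233 ± 5.4 CPM in wt. HARS2, a mitochondrial histidyl-tRNA synthetase, was the 1 called gene of 39 tRNA synthetases (96.7 ± 1.8 CPM in MZ smchd1 and 77.3 ± 2.1 CPM in wt). eif4ebp2, an inhibitor of cap-dependent translation, was lower (194 ± 3.7 CPM in MZ smchd1 and 236.2 ± 10.2 CPM in wt), and the termination factor gene etf1a was higher, at no more than 1.29 CPM in any library.

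Of 141 genes for ubiquitin, SUMO, E1 and E2 enzymes and deubiquitinases, 6 were called (4.26%, against 3.02% of all genes). ubb was higher, and usp16, usp10, usp20, USP53 and usp37 were lower. usp16, which removes ubiquitin from histone H2A, was stable, with 99.5, 86.8 and 101 CPM in MZ smchd1, against 144, 149.9 and 149 CPM in wt (log2 fold change -0.62 ± 0.074 (SE), edgeR adjusted p = 0.014). usp10 had 288, 303 and 309.9 CPM in MZ smchd1, against 548, 436 and 527 CPM in wt (log2 fold change -0.75 ± 0.092 (SE), edgeR adjusted p = 0.0154). usp20 had 94.7 ± 7.5 CPM in MZ smchd1 and 147 ± 11.2 CPM in wt. USP53 had 0.989 ± 0.38 CPM in MZ smchd1 and 5.601 ± 1.6 CPM in wt, and usp37 had 427 ± 16.2 CPM in MZ smchd1 and 513 ± 2.7 CPM in wt. The list median was -0.03. Of 287 E3 ligase genes, 4 were called (1.39%), among them rnf146, with 286 ± 9.0 CPM in MZ smchd1 and 216 ± 13.3 CPM in wt, whose direction turned on the TPM scale. The paralogues trim35-29 and trim35-20 changed in opposite directions and may share reads with other copies. ltn1, the ligase of ribosome quality control, was stable and lower, with a log2 fold change of -0.48 ± 0.049 (SE). ecpas, a proteasome adaptor, had 254 ± 19.5 CPM in MZ smchd1 and 337 ± 12.2 CPM in wt, and the proteasome genes psme1 and psmg1 were lower among 55 (3.64%).

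Of 24 tested genes for MHC and antigen processing, 4 were called (16.7%), all lower, although the list median was -0.05. mhc1zfa, an MHC class I gene, was stable, with 0.250, 0.176 and 0.129 CPM in MZ smchd1, against 3.72, 6.62 and 6.31 CPM in wt (log2 fold change -4.84 ± 0.44 (SE), edgeR adjusted p = 0.00732). Its neighbour mhc1zka had 0.0999, 0.293 and 0 CPM in MZ smchd1, against 3.21, 1.84 and 2.33 CPM in wt (log2 fold change -4.15 ± 0.80 (SE), edgeR adjusted p = 0.0466). b2ml encodes a form of beta-2 microglobulin, the light chain of class I molecules, and had 4.10, 1.87 and 2.91 CPM in MZ smchd1, against 17.5, 10.2 and 16.2 CPM in wt (log2 fold change -2.30 ± 0.36 (SE), edgeR adjusted p = 0.0295). psme1, a subunit of the PA28 activator that alters the cleavage pattern of proteasomes, had 0.899, 0.234 and 0.517 CPM in MZ smchd1, against 7.36, 8.86 and 6.67 CPM in wt (log2 fold change -3.76 ± 0.48 (SE), edgeR adjusted p = 0.0161). All 4 were at 17.5 CPM or less in every library. mhc1zfa and mhc1zka were tested only through the wt libraries, so that their direction follows from the filter. Class I genes are highly polymorphic and have near-identical copies, so that haplotypes carried by the line cannot be told apart from a change in expression.

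Blood markers were looked at beside these immune genes. Of the 7 markers listed for blood cells, 5 were found and 1 passed the filter, coro1a, which was not called. They summed to 1.40 to 6.44 CPM in MZ smchd1, against 1.67 to 7.80 CPM in wt, and the globin hbae1.1 had 0 counts in all 6 libraries. Among 84 genes for chemokines, cytokines and receptors, 4 were called (4.76%, against 3.02% of all genes). lifra rose and osm, il17ra1a and cntfr fell. cntfr and lifra encode receptor subunits for cytokines of the interleukin 6 type, the family of oncostatin M (osm). lifra had 22.0, 17.0 and 16.9 CPM in MZ smchd1, against 9.28, 9.31 and 8.43 CPM in wt (log2 fold change 1.05 ± 0.18 (SE), edgeR adjusted p = 0.035). cntfr had 0.849, 1.23 and 1.03 CPM in MZ smchd1, against 2.74, 5.47 and 7.49 CPM in wt (log2 fold change -2.33 ± 0.44 (SE), edgeR adjusted p = 0.045), and osm had 0.139 CPM in MZ smchd1 and 7.91 CPM in wt. irak3, which dampens Toll-like receptor signals, rose and was the 1 called gene of 198 for MAP kinase, PI3 kinase and stress kinase signalling (1.85 ± 0.43 CPM in MZ smchd1 and 0.211 ± 0.085 CPM in wt).

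The list of opsins and retinal proteins had 6 of 31 tested members called (19.4%), 3 higher and 3 lower, with a median of 0.02. valopa, an opsin known from deep brain photoreceptors, had 1.40, 1.05 and 0.775 CPM in MZ smchd1, against 0.128, 0.0498 and 0.103 CPM in wt (log2 fold change 3.42 ± 0.55 (SE), edgeR adjusted p = 0.0305). opn8c and the lens crystallin CRYBA1 were higher as well. opn8c had 1.67 ± 0.37 CPM in MZ smchd1 and 0.107 ± 0.093 CPM in wt, and CRYBA1 had 3.46 ± 1.7 CPM in MZ smchd1 and 0.421 ± 0.24 CPM in wt. pde6d, which carries lipid-modified proteins to cilia and is not specific to the eye, had 27.3, 24.8 and 26.2 CPM in MZ smchd1, against 46.7, 45.1 and 47.5 CPM in wt (log2 fold change -0.83 ± 0.10 (SE), edgeR adjusted p = 0.015). soul3, a heme-binding protein gene, and opn7d, an opsin, were lower. opn7d was stable and had 2 counts in MZ smchd1 and 700 in wt, a ratio of 293 (95% counting interval 80.8 to 2424). In wt the means of valopa, opn8c and CRYBA1 lay below the filter, so that these genes were tested only through the MZ smchd1 libraries. In MZ smchd1 the same was true of opn7d, tested only through the wt libraries. The directions of these genes follow from the filter, and the share of this list is a description only.

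At the cell surface, signalling genes changed singly. Of 91 genes for FGF and receptor tyrosine kinases, 5 were called (5.49%, against 3.02% of all genes). mertka and EPHB3 rose and EFNA1, FGF13 and erbb3b fell. mertka, a receptor for engulfment of dead cells, had 57.5, 50.8 and 55.0 CPM in MZ smchd1, against 28.9, 24.6 and 20.6 CPM in wt (log2 fold change 1.14 ± 0.15 (SE), edgeR adjusted p = 0.0161). erbb3b, a neuregulin receptor, had 1.80, 0.820 and 1.098 CPM in MZ smchd1, against 9.54, 13.5 and 13.8 CPM in wt (log2 fold change -3.29 ± 0.36 (SE), edgeR adjusted p = 0.0103). FGF13, a factor that stays inside the cell and binds sodium channels, had 0.0999, 0.176 and 0.0646 CPM in MZ smchd1, against 8.51, 3.29 and 6.56 CPM in wt (log2 fold change -5.67 ± 0.57 (SE), edgeR adjusted p = 0.00902). Both were stable, but FGF13 was tested only through the wt libraries, so that its direction follows from the filter. Of 57 genes in BMP, TGF-beta and Nodal signalling, 3 were called (5.26%). The ligand BMP2 rose (4.39 ± 1.2 CPM in MZ smchd1 and 0.556 ± 0.14 CPM in wt). fstl5 and the receptor acvr1l, known in zebrafish for ventral patterning by maternal BMP signals, fell (233 ± 16.2 CPM in MZ smchd1 and 299 ± 6.6 CPM in wt). Of 58 Wnt pathway genes 2 were called (3.45%). tcf7l1b and the receptor FZD8 (1.04 ± 0.11 CPM in MZ smchd1 and 4.18 ± 1.3 CPM in wt) were lower. None of 46 genes of Notch, Hedgehog and retinoic acid signalling was called.

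Called shares were 2.35% of 85 integrin and immunoglobulin-family genes, 1.88% of 160 actin and myosin genes and 6.38% of 47 claudin and tight junction genes. ITGB1, the common beta chain of integrins, was stable at 65.9, 63.4 and 65.8 CPM in MZ smchd1, against 116, 104 and 119 CPM in wt (log2 fold change -0.79 ± 0.075 (SE), edgeR adjusted p = 0.00793). VCL, the vinculin that links integrins and cadherins to actin, had 25.3, 26.7 and 26.6 CPM in MZ smchd1, against 36.9, 47.3 and 42.1 CPM in wt (log2 fold change -0.68 ± 0.13 (SE), edgeR adjusted p = 0.0427). myo1d, a myosin known for left-right asymmetry in zebrafish, was stable at 53.1, 55.0 and 62.1 CPM in MZ smchd1, against 122, 124 and 99.6 CPM in wt (log2 fold change -1.02 ± 0.11 (SE), edgeR adjusted p = 0.0103). myl12.1, a myosin regulatory light chain, had 96.7 ± 9.5 CPM in MZ smchd1 and 139.5 ± 3.3 CPM in wt, and the polarity protein pard6a 82.0 ± 5.9 CPM in MZ smchd1 and 111 ± 2.4 CPM in wt. The log2 fold changes of these genes lay between -0.43 and -1.02. All 3 called genes of 160 for actin and myosin were lower. In contrast GJA1, a gap junction protein, was higher (9.28 ± 2.8 CPM in MZ smchd1 and 1.11 ± 0.82 CPM in wt), as was the desmosomal PKP1 (2.22 ± 0.20 CPM in MZ smchd1 and 0.532 ± 0.13 CPM in wt). Among 14 tested protocadherin genes 3 were called (21.4%, against 3.02% of all genes), pcdh1g3 and pcdh2ab10 higher and pcdh2ab8 lower. These clustered genes share sequence, and their reads could be split among copies. Log2 fold changes of the 14 ran from -8.33 to 8.31, and 2 of them had 0 counts in 1 genotype. Members with so few counts in 1 genotype were tested only through the other, which fixes their direction. The share of this list is a description only.

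Of 121 matrix genes, 5 were called (4.13%, against 3.02% of all genes). adamts3 rose, as did hapln1a, which links hyaluronan to proteoglycans (7.10 ± 0.93 CPM in MZ smchd1 and 2.09 ± 0.32 CPM in wt), and adamts18 (9.94 ± 3.6 CPM in MZ smchd1 and 2.86 ± 0.41 CPM in wt). ltbp1, which holds latent TGF-beta (2.65 ± 0.78 CPM in MZ smchd1 and 16.8 ± 6.3 CPM in wt), and the protease gene adam8b (1.71 ± 0.81 CPM in MZ smchd1 and 17.2 ± 10.1 CPM in wt) fell. Of 317 genes that regulate small GTPases, 2 were higher and 9 lower (3.47%, near the share of all genes), with a median of -0.01. arhgap27 was stable, with 0.799, 0.702 and 0.840 CPM in MZ smchd1, against 8.68, 6.17 and 5.01 CPM in wt (log2 fold change -3.08 ± 0.33 (SE), edgeR adjusted p = 0.0101). arhgap36 had 2.85 ± 0.69 CPM in MZ smchd1 and 17.6 ± 6.2 CPM in wt, and the early endosome protein rab5c had 63.8 ± 1.1 CPM in MZ smchd1 and 89.4 ± 5.3 CPM in wt. arhgef38 (1.78 ± 0.20 CPM in MZ smchd1 and 0.187 ± 0.060 CPM in wt) and RAB33B (109 ± 10.7 CPM in MZ smchd1 and 69.9 ± 5.6 CPM in wt) rose. Of 101 axon guidance genes 4 were called (3.96%). EFNA1, robo4 (0.968 ± 0.60 CPM in MZ smchd1 and 11.7 ± 4.2 CPM in wt) and tenm3 (3.79 ± 1.8 CPM in MZ smchd1 and 18.4 ± 5.4 CPM in wt) were lower. EPHB3 was higher (1.98 ± 0.32 CPM in MZ smchd1 and 0.354 ± 0.18 CPM in wt).

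Ion channels gave 5 decreases and 2 increases among 152 tested genes (4.61%), with a list median of 0.08. Both T-type calcium channel genes called, cacna1ha and cacna1g, were lower. cacna1ha was stable, with 2.35, 3.34 and 2.58 CPM in MZ smchd1, against 33.6, 31.0 and 24.5 CPM in wt (log2 fold change -3.43 ± 0.22 (SE), edgeR adjusted p = 0.00323). cacna1g had 4.40, 6.15 and 2.58 CPM in MZ smchd1, against 32.6, 13.7 and 29.6 CPM in wt (log2 fold change -2.53 ± 0.43 (SE), edgeR adjusted p = 0.0352), with wt replicate 2 closest to MZ smchd1. kcnq1.1, a voltage-gated potassium channel, was stable at 1.05, 0.936 and 0.581 CPM in MZ smchd1, against 7.32, 8.41 and 13.9 CPM in wt (log2 fold change -3.51 ± 0.39 (SE), edgeR adjusted p = 0.0109). TRPC6, a receptor-operated cation channel, had 0.844 ± 0.36 CPM in MZ smchd1 and 6.52 ± 1.0 CPM in wt. p2rx7, an ATP-gated channel in the synaptic list, was stable, with 3.55, 5.91 and 4.13 CPM in MZ smchd1, against 25.3, 22.3 and 32.5 CPM in wt (log2 fold change -2.56 ± 0.26 (SE), edgeR adjusted p = 0.00914). vamp2, a SNARE of synaptic vesicles, had 0.631 ± 0.25 CPM in MZ smchd1 and 4.16 ± 1.6 CPM in wt. Of 281 solute carrier genes 3 were called (1.07%), all higher. Of these slc7a2, a carrier of cationic amino acids, had 2.10, 2.98 and 1.42 CPM in MZ smchd1, against 0.0856, 0.149 and 0.0517 CPM in wt (log2 fold change 4.42 ± 0.56 (SE), edgeR adjusted p = 0.0161). It was tested only through the MZ smchd1 libraries, so that its direction follows from the filter. slc25a33, a mitochondrial pyrimidine carrier, had 162 ± 9.1 CPM in MZ smchd1 and 122 ± 6.8 CPM in wt, and SLC5A6, a vitamin carrier, 27.0 ± 2.4 CPM in MZ smchd1 and 16.9 ± 0.52 CPM in wt. Of 109 ABC transporters and pumps, 4 were called (3.67%, against 3.02% of all genes). ABCA3, abcb8 and ABCA4 were lower and the calcium pump gene atp2a2a slightly higher (218 ± 8.4 CPM in MZ smchd1 and 175 ± 3.9 CPM in wt).

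Metabolic genes changed in small numbers on both sides. Of 85 genes for polyamines, amino acids and one-carbon units, 5 were called (5.88%). Beside smox, srm, the spermidine synthase, was higher, with 168, 157 and 157 CPM in MZ smchd1, against 125, 128 and 129.5 CPM in wt (log2 fold change 0.34 ± 0.056 (SE), edgeR adjusted p = 0.0343). agmat, named for the conversion of agmatine to putrescine (6.87 ± 0.63 CPM in MZ smchd1 and 2.40 ± 0.60 CPM in wt), and gamt, which makes creatine (1.43 ± 0.21 CPM in MZ smchd1 and 0.303 ± 0.057 CPM in wt), were higher as well. dhfr, the dihydrofolate reductase, was lower at 49.0, 48.7 and 47.5 CPM in MZ smchd1, against 73.1, 71.6 and 71.7 CPM in wt (log2 fold change -0.58 ± 0.071 (SE), edgeR adjusted p = 0.0154).

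Of 100 genes for glycolysis, the TCA cycle and glucose use, 3 were higher and 2 lower. ldha, the lactate dehydrogenase, had 48.5, 83.5 and 83.4 CPM in MZ smchd1, against 29.2, 30.8 and 30.8 CPM in wt (log2 fold change 1.25 ± 0.21 (SE), edgeR adjusted p = 0.035), with MZ smchd1 replicate 1 nearer to wt. PFKFB4, which sets the level of a glycolytic activator, had 72.8 ± 7.2 CPM in MZ smchd1 and 49.3 ± 1.9 CPM in wt. Both were higher. sdhc, a subunit of succinate dehydrogenase (31.3 ± 2.0 CPM in MZ smchd1 and 48.2 ± 2.5 CPM in wt), and ogdha, of the oxoglutarate dehydrogenase (61.8 ± 2.4 CPM in MZ smchd1 and 83.8 ± 5.0 CPM in wt), were lower. Of 113 nuclear genes for oxidative phosphorylation, 5 were called (4.42%). uqcr10 and atp5if1a, an inhibitor of the ATP synthase, were higher, and uqcrfs1, cycsb and sdhc were lower. atp5if1a had 82.4, 93.8 and 78.6 CPM in MZ smchd1, against 30.6, 50.2 and 41.0 CPM in wt (log2 fold change 1.06 ± 0.18 (SE), edgeR adjusted p = 0.035). uqcrfs1, the Rieske protein of complex III, had 87.2, 84.6 and 84.4 CPM in MZ smchd1, against 139, 141 and 171 CPM in wt (log2 fold change -0.82 ± 0.093 (SE), edgeR adjusted p = 0.0117). uqcr10, of the same complex, had 67.0 ± 12.6 CPM in MZ smchd1 and 29.4 ± 5.8 CPM in wt. cycsb, a cytochrome c, had 71.0 ± 10.99 CPM in MZ smchd1 and 142 ± 9.5 CPM in wt. None of 13 genes encoded in mitochondrial DNA was called, and their median was -0.19.

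Among genes for oxidants and drug conjugation, cat, the catalase that breaks down hydrogen peroxide, was among the most abundant genes that rose, with 480.0, 387 and 432 CPM in MZ smchd1, against 286, 305 and 248 CPM in wt (log2 fold change 0.63 ± 0.11 (SE), edgeR adjusted p = 0.0343). nqo1, a quinone reductase, fell to 6.99, 4.10 and 6.201 CPM in MZ smchd1, against 19.9, 21.6 and 18.7 CPM in wt (log2 fold change -1.80 ± 0.24 (SE), edgeR adjusted p = 0.0164). MGST3 was lower (10.8 ± 2.3 CPM in MZ smchd1 and 22.6 ± 2.8 CPM in wt) and ugt5f1 higher (11.8 ± 3.7 CPM in MZ smchd1 and 3.78 ± 0.62 CPM in wt). Of lipid genes NPC2, which moves cholesterol out of lysosomes (307 ± 20.2 CPM in MZ smchd1 and 237 ± 5.0 CPM in wt), and pnpla2, the adipose triglyceride lipase (9.38 ± 0.50 CPM in MZ smchd1 and 2.12 ± 0.99 CPM in wt), rose. mtmr3 (35.03 ± 0.46 CPM in MZ smchd1 and 52.9 ± 2.9 CPM in wt) and INPP5K (4.67 ± 0.37 CPM in MZ smchd1 and 11.5 ± 2.1 CPM in wt), phosphoinositide phosphatases, fell. rrm2b, a subunit of ribonucleotide reductase (5.79 ± 1.3 CPM in MZ smchd1 and 31.9 ± 13.1 CPM in wt), and dck, which salvages deoxynucleosides (3.30 ± 0.68 CPM in MZ smchd1 and 16.8 ± 7.7 CPM in wt), were lower among 94 nucleotide genes. The muscle AMP deaminase gene ampd1 was higher (16.4 ± 4.8 CPM in MZ smchd1 and 3.42 ± 1.7 CPM in wt), so that 3 of the 94 were called (3.19%). Chaperone genes dnajb1b (256.7 ± 37.5 CPM in MZ smchd1 and 164 ± 7.9 CPM in wt), DNAJA2 (568 ± 20.2 CPM in MZ smchd1 and 468 ± 11.4 CPM in wt) and dnajc27 (34.4 ± 3.9 CPM in MZ smchd1 and 17.2 ± 2.0 CPM in wt) rose among 137 tested. bag5 (91.8 ± 4.9 CPM in MZ smchd1 and 119 ± 3.5 CPM in wt) fell, so that 4 of the 137 were called (2.92%).

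Of 52 genes for egg and oocyte proteins, zp2.2 and zp2.5 were called (3.85%, near the 3.02% of all genes), both higher. zp2.2 had 50.9, 52.2 and 40.1 CPM in MZ smchd1, against 17.1, 23.3 and 17.8 CPM in wt (log2 fold change 1.30 ± 0.17 (SE), edgeR adjusted p = 0.0177). zp2.5 had 17.5, 18.4 and 14.8 CPM in MZ smchd1, against 7.91, 8.46 and 6.87 CPM in wt (log2 fold change 1.12 ± 0.18 (SE), edgeR adjusted p = 0.0305). They encode egg coat proteins of the zona pellucida type, stem from a family of near-identical copies, and may share reads. Of 30 germ plasm and piRNA genes, tdrd6b, a Tudor domain protein, was the 1 called (3.33%), with 264, 311 and 246 CPM in MZ smchd1, against 386, 398 and 396 CPM in wt (log2 fold change -0.53 ± 0.089 (SE), edgeR adjusted p = 0.035). Of 181 cyclin, kinase and mitotic genes, 5 were called (2.76%). ccnh, the cyclin of the CDK-activating kinase (103.1 ± 6.6 CPM in MZ smchd1 and 68.9 ± 6.5 CPM in wt), and cdk5rap2, of the centrosome (180.3 ± 2.2 CPM in MZ smchd1 and 150.8 ± 1.6 CPM in wt), were higher. mad2l2, anapc5, of the anaphase-promoting complex (15.6 ± 3.7 CPM in MZ smchd1 and 44.5 ± 13.7 CPM in wt), and cenpt, of the kinetochore (181 ± 13.6 CPM in MZ smchd1 and 258 ± 21.1 CPM in wt), were lower. Of 7 ovarian follicle markers 5 were found. They summed to at most 0.749 CPM in any MZ smchd1 library and 1.19 CPM in any wt library. Liver markers summed to at most 0.410 CPM in MZ smchd1 and 0.155 CPM in wt, with vtg1, apoa1b and fabp10a at 0 counts throughout. Testis markers summed to 3.81 to 4.57 CPM in MZ smchd1, against 3.04 to 6.51 CPM in wt. Of these short marker panels for follicle, blood, liver and testis, coro1a, dmrt1 and ropn1l alone passed the filter, and none of the 3 was called. In the wider lists defined by symbol patterns, none of 9 tested follicle genes and none of 7 tested blood genes was called. These follicle genes were not near 0, with a median level of 29.5 CPM in MZ smchd1 and 14.7 CPM in wt. Their median log2 fold change was -0.14. Of 22 tested testis genes spag7 was called lower (41.3 ± 8.9 CPM in MZ smchd1 and 111 ± 21.8 CPM in wt). Both tested liver genes had positive log2 fold changes, of 1.48 and 1.74, and neither was called. Their median level was 5.22 CPM in MZ smchd1 and 1.70 CPM in wt. The part of RNA from these cells in the results was not tested.

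Genes were next placed by chromosome, using the neighbour order of assembly GRCz12tu. Of 10993 tested genes with a place, 335 were called (3.05%). Shares were highest on chromosome 8 (30 of 480, 6.25%), chromosome 18 (20 of 353, 5.67%) and chromosome 10 (21 of 378, 5.56%), and lowest on chromosome 15 (1 of 367, 0.272%) and chromosome 11 (2 of 391, 0.512%). On chromosome 10 there were 3 genes higher and 18 lower, and on chromosome 12 there were 2 higher and 12 lower. The median change of all placed genes on a chromosome stayed between -0.03 and 0.05. On chromosome 7, which carries smchd1, 6 genes were higher and 19 lower of 611 (4.09%). Among the 20 tested and placed neighbours on each side of smchd1, 3 of 40 were called and none was higher.

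**Figure D4:**
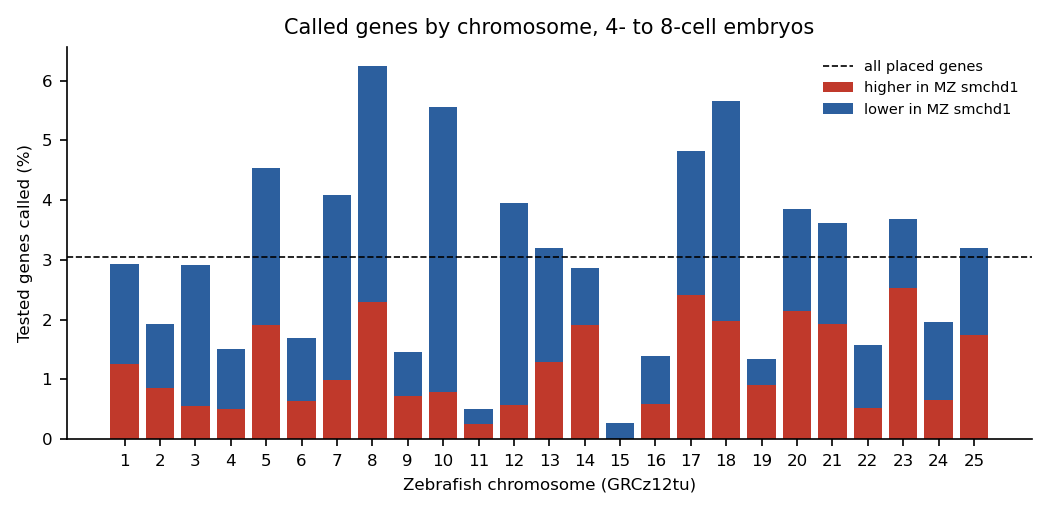
Share of tested genes called higher (red) and lower (blue) in MZ smchd1 on each of the 25 chromosomes, in percent, with the share of all placed genes as a dashed line. Chromosomes 8, 18 and 10 are highest with over 5% each, chromosomes 10 and 12 are mostly blue, and chromosomes 11 and 15 are nearly empty.

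Called genes formed 24 runs of neighbours among the tested genes with a place, 3 of them with 3 genes and 21 with 2. These runs held 51 of the 335 placed called genes, and 17 runs changed in 1 direction. Genes without a place were skipped and may lie between the members of a run. How many runs would form by position alone was not tested. The 3 longest were all lower in MZ smchd1. On chromosome 10, hist2h2l and h2ax1 were followed by zpr1, a zinc finger protein that binds growth factor receptors, with 53.1, 54.4 and 50.1 CPM in MZ smchd1, against 153, 87.5 and 97.4 CPM in wt (log2 fold change -1.10 ± 0.21 (SE), edgeR adjusted p = 0.0443). On chromosome 12, ogfod3 (2.11 ± 0.60 CPM in MZ smchd1 and 8.75 ± 3.2 CPM in wt) lay between cacna1g and myo1d. On chromosome 8, mad2l2 was followed by zgc:153631 (2.29 ± 0.49 CPM in MZ smchd1 and 7.73 ± 0.45 CPM in wt) and si:dkey-23c22.5 (0.641 ± 0.45 CPM in MZ smchd1 and 5.21 ± 1.7 CPM in wt). Pairs in 1 direction included smchd1 and myl12.1, acoxl and mertka, and mhc1zka and mhc1zfa. nr4a1 and its neighbour tamalin, a scaffold of glutamate receptors, differed in direction, tamalin being slightly higher (113 ± 1.2 CPM in MZ smchd1 and 88.1 ± 5.4 CPM in wt). In the zpr1 run wt replicate 1 was highest for all 3 genes.

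The same contrast was read in the 6 libraries of the sphere stage, where zygotic transcription has begun. The MZ smchd1 libraries of that stage were shallower and held more ribosomal RNA, with 7829742 to 16625111 counts. Of the genes called at the 4- to 8-cell stage, 448 were also tested at sphere. There, 75.4% of them had the same sign, against 59.2% of all 15018 genes tested at both stages, and 17.9% were called, against 7.77% of all. Among all 16314 genes tested at sphere 7.78% were called. In the same direction 78 were called at sphere, 26 higher and 52 lower, and 2 in the opposite direction. Of the 68 stable genes tested at sphere, 54 had the same sign and 23 were called in the same direction. The 448 and the 68 include smchd1, whose call follows from the design, and the hox genes HOXB2 and HOXC10. Each of these was called at sphere in the same direction.

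**Figure D5:**
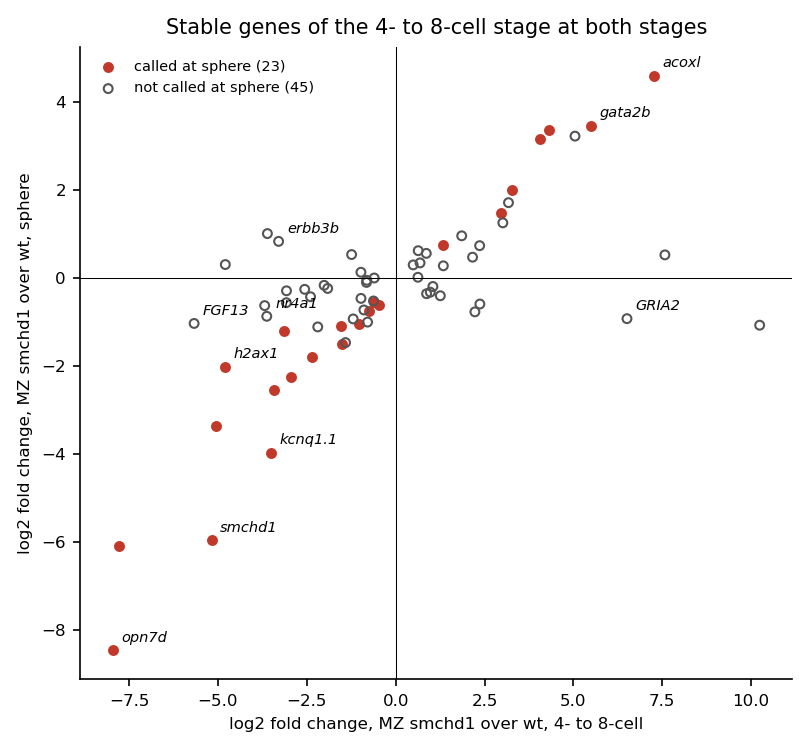
log2 fold change of MZ smchd1 over wt in 4- to 8-cell embryos (horizontal axis) and in sphere embryos (vertical axis) for the 68 stable genes tested at both stages, with 1 point per gene, filled where called at sphere. The 23 filled points lie to the lower left and upper right of the origin, from opn7d and smchd1 to acoxl, while erbb3b and GRIA2 lie on the other side of 0 on the vertical axis.

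Several stable genes were called in the same direction at sphere. The log2 fold changes there were -1.20 for sertad3, -2.55 for cacna1ha, -1.09 for DLG5, -2.01 for h2ax1, -3.97 for kcnq1.1, -1.03 for myo1d, -0.54 for MBD3, 1.48 for smox and 0.75 for nfu1. The edgeR adjusted p was 0.00338 for h2ax1, the lowest of these, and 0.0455 for MBD3, the highest. Others had no call there, with a log2 fold change of -0.87 for nr4a1 (edgeR adjusted p = 0.62). This was -0.29 for EFNA1 (edgeR adjusted p = 0.575) and -0.46 for tcf7l1b (edgeR adjusted p = 0.271). It was 0.84 for erbb3b (edgeR adjusted p = 0.195) and -0.35 for esco2 (edgeR adjusted p = 0.171). agmat was called lower at sphere (-2.69, edgeR adjusted p = 0.0298), the opposite of its increase in 4- to 8-cell embryos. atp5if1a was called higher at both stages, with 2.44 at sphere (edgeR adjusted p = 0.00161), and cat likewise with 1.15 (edgeR adjusted p = 0.0125).

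Lastly the mean transcript length of a gene, which moves where the proportions of its isoforms move, was compared with limma in 8509 genes. It differed in 7 genes (0.0823%), 2 with longer and 5 with shorter transcripts in MZ smchd1. RHOT1, a mitochondrial GTPase that tethers mitochondria to kinesin, had a mean length of 2595, 2594 and 2603 bases in MZ smchd1, against 2815, 2826 and 2822 bases in wt (limma adjusted p = 0.00076), with no call for its level. rcn1, a calcium-binding protein of the endoplasmic reticulum, had 2039 bases in each MZ smchd1 library, against 1288, 1245 and 1154 bases in wt (limma adjusted p = 0.0345), at 2.00 CPM or less. C7H16orf87 was longer as well, with 1263 bases in each MZ smchd1 library against 1145, 1165 and 1147 bases in wt (limma adjusted p = 0.03). tfeb, a regulator of lysosome genes, was shorter, with 1888, 1769 and 1698 bases in MZ smchd1 against 2882, 2863 and 2888 bases in wt (limma adjusted p = 0.0345), at 1.45 CPM or less. zbtb46 was shorter too, with 1545 bases in each MZ smchd1 library against 3470, 3497 and 3355 bases in wt (limma adjusted p = 0.00076), but had no more than 0.129 CPM in any MZ smchd1 library.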

How the data were processed

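The 6 libraries of the 4- to 8-cell stage were grouped by their GEO labels. The authors aligned paired-end reads of poly-A RNA to danRer10 with Bowtie and deposited RSEM estimated counts, TPM and transcript lengths per gene for Ensembl genes (versions are not given in the sources used here). Totals were 15544834 to 23681822 counts per library, and intervals cover counting error only. The deposited expected counts were rounded, 1 ribosomal RNA gene was removed as the study did, and genes with a mean scaled count above 10 were tested with edgeR 4.0.16 (R 4.3.3, TMM, quasi-likelihood) with Benjamini-Hochberg adjustment over all of them. limma 3.58.1 compared log2 transcript length and, as an alternative, the deposited TPM plus 1 or 0.1, and DESeq2 1.42.0 the counts. Strand was not used here, so that a gene and an overlapping antisense gene cannot be told apart.

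Genes named were those called with every library left out (14 by adjusted p in each direction), the 8 most abundant non-overlapping called genes and the 8 largest changes in each direction, up to 5 called members of each list by adjusted p, the 5 lowest adjusted p for transcript length in each direction, and the members of the 5 longest runs of neighbours, hox genes apart. Other stable genes, further list members and neighbour pairs were named after their values were seen. The genes, lists and markers were chosen with earlier results of these data known, and some list patterns were corrected after values were seen. Alternatives were other size factors, filters, units and tools, all 12 libraries, a replicate block, and each library left out. The statistics were tested on simulated data. Promoter sequence was not used here. Some genes that the rule names are not reported here.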

Additional observations from a re-analysis of the deposited data

Results flagged for a closer look

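Whether the effect of genotype differed between stages was tested with an edgeR interaction term over all 12 libraries, a test added after the data were seen. It was called in 327 of 16595 genes (1.97%) and in 66 of the genes called at the 4- to 8-cell stage. The genes below were chosen for a difference at that stage, and the stage differences are therefore a description. Values are sphere minus 4- to 8-cell log2 fold changes (MZ smchd1 over wt). The MZ smchd1 sphere libraries held 7829742 to 16625111 counts, against 16813724 to 17266229 in the wt sphere libraries, and replicate 1 held 3.98% ribosomal RNA. The part of depth in these values was not tested.

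Among genes lower at the 4- to 8-cell stage, the decrease was smaller, absent or turned at sphere for the receptors and ligands erbb3b (4.13), EFNA1 (2.79), FZD8 (2.08), lrp3 (1.68), il17ra1a (9.06) and p2rx7 (2.31). The same held for the nuclear proteins h2ax1 (2.80), sertad3 (1.95), mad2l2 (1.84), KANSL1 (0.85) and zbtb46 (4.35), and for lrrc75ba (3.07), rgs3b (1.86), pard6a (1.08) and usp20 (1.03). At the 4- to 8-cell stage zbtb46 was tested only through the wt libraries, so that the size of its stage difference rests on few MZ smchd1 counts. Levels of il17ra1a, which has the largest value listed, are not given here, and how far low counts set its size was not tested. Among genes higher at the 4- to 8-cell stage, the stage difference was negative for BMP2 (-3.32), agmat (-4.21), irak3 (-3.10), nova1 (-1.73), smox (-1.48), dnajc27 (-1.43), esco2 (-1.22), zmym4.1 (-0.69) and HARS2 (-0.64). atp5if1a alone of these 25 genes differed further at sphere, with a stage difference of 1.38.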

How the results depend on the processing

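smchd1 kept its direction and call under every alternative run. DESeq2 called 950 genes higher and 1076 lower (437 and 498 over 2-fold), and the fit of all 12 libraries called 212 over 2-fold higher and 244 over 2-fold lower. Other size factors, filters and TPM left the numbers of higher and lower genes within 1.5 times of 212 and 270. The genes themselves were not all the same. Of the 482 called genes, 413 to 480 were called again with other size factors and filters. On the TPM scale 362 (plus 1) and 340 (plus 0.1) were, and in the fit of all 12 libraries 348 were. With each library left out in turn, 42 to 144 genes were higher, 83 to 189 lower, 32 to 99 over 2-fold higher and 66 to 134 over 2-fold lower, with 99 to 242 of the 482 called genes called again. Transcript length differed in 4 to 11 genes in those fits and in 4 at a mean count above 50. The direction of rnf146 turned with limma on TPM plus 1 (-0.15) and plus 0.1 (-0.15), as did that of rcn1 (-0.17 and -0.26) and tfeb (0.29 and 0.58), of which rcn1 and tfeb were not called for level, and tfeb ranged from -0.28 to 0.15 with libraries left out. The causes were not tested. No scaling moved the median of all genes by more than 0.1. Each of them gives relative levels, so that a change in total RNA would not show in this median.

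With replicate number as a block, 27 genes were higher and 39 lower (20 and 31 over 2-fold), 58 of the 482 called genes stayed called, and transcript length was called in 0 genes. Deviations of same-numbered libraries from their genotype mean correlated at 0.0754, 0.0487 and 0.0185. Those of differently numbered libraries correlated at -0.0914 to 0.0401, the highest for MZ smchd1 replicate 3 and wt replicate 2. With 3 libraries per genotype, such values cannot show whether the numbers pair the samples.

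Depth limits genes at 0 counts in a genotype (3 called genes in wt and 7 in MZ smchd1), where a fold change has only a lower bound.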
